A study of Mus musculus with 6 samples.

Results

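Astrocyte genes were followed in bulk mRNA sequencing of the mouse nucleus accumbens core, the central part of the ventral striatum's reward circuit. The set held 36 genes of 24532 in the deposited table, chosen by symbol from genes known to be enriched in astrocytes. The choice was made with earlier results of these data known. All 36 were present with at least 511 estimated reads in every library. There were 3 samples titled ethanol and 3 titled control, all from wild-type male mice that the labels call adolescent, with postnatal days 35 to 55 given for the behavioural work. Per the labels, the behavioural schedule was contextual fear conditioning, binge-like ethanol on 1 day, extinction trials and an every-other-day drinking test lasting 27 days, with tissue taken 24 h after its end. The ethanol day consisted of 6 intraperitoneal injections of 20% v/v ethanol in saline within 6 h: a dose of 1.8 g/kg was followed by 5 doses of 1.2 g/kg. The treatment field of the labels reads ethanol exposure for control samples too, so the groups rest on the titles, and the labels give no injection of their own for control mice. The drinking period is described for both groups alike. The labels do not say whether a sample is 1 mouse or a pool, or whether samples came from separate mice. The p-values therefore reflect sample-to-sample spread only, part or all of which could be technical.

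Astrocytes take up synaptic glutamate and turn it into glutamine, buffer potassium and water through channels in their endfeet, couple to each other through gap junctions and hold the glycogen of the brain. They respond to injury by raising intermediate filament proteins, above all GFAP. In the striatum they contact medium spiny neurons, and astrocytic glutamate uptake has been studied in rodents as a target of repeated alcohol and drug exposure. Several genes of the set are not restricted to astrocytes: Glul and S100b are also found in oligodendrocytes, Apoe in microglia, Vim in vascular cells, Fabp7 in precursors and Clu in neurons. In bulk tissue, fewer or more astrocytes cannot be told apart from less or more RNA per astrocyte.

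The libraries held 36197592 to 67399599 estimated reads in ethanol and 35898026 to 55672232 in control, with the most in ethanol 1. Reads were found for 17173 to 17565 genes in ethanol libraries, and for 17096, 17707 and 15924 genes in control 3, control 1 and control 2. Striatal tissue was checked by its medium spiny neuron genes: Ppp1r1b, which encodes DARPP-32, was at 486 to 1156 CPM in ethanol and 513 to 598 CPM in control, and Drd1 at 45.0 to 58.8 CPM and 26.9 to 41.8 CPM in ethanol and control. CPM are estimated reads scaled by library size with TMM factors, which correct for composition.

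Levels of different genes were compared in FPKM, which are per length. Apoe, the main lipid carrier secreted by astrocytes, led the set at 2127, 2968 and 1917 FPKM in ethanol 1, 2 and 3 and at 1987, 2117 and 2232 FPKM in control 1, 2 and 3. Glul, glutamine synthetase, followed with a mean of 495 FPKM over the 6 libraries, then Clu, a secreted chaperone, with 484 and Aldoc, the brain aldolase of glycolysis, with 464. Slc1a3 and Slc1a2, the glutamate transporters GLAST and GLT-1, had nearly the same mean over the 6 libraries, 75.2 and 74.8 FPKM. Gfap was number 13 in the order with 57.2 FPKM, Gja1, the main astrocyte connexin, had 42.9 and Aldh1l1, a folate enzyme used as a general astrocyte marker, had 27.9. The lowest were Sox9, a transcription factor of the glial lineage, with 4.27 FPKM and Dio2, the deiodinase that activates thyroid hormone, with 2.23 FPKM. Together the 36 genes took 12672 to 15824 CPM in ethanol libraries and 11842 to 12647 CPM in control libraries, so the lowest ethanol library, ethanol 3, lay just above the highest control library, control 2.

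The comparison of ethanol with control asked whether astrocyte transcripts differed after the whole schedule. No astrocyte gene passed the test over all genes: by edgeR's quasi-likelihood test 0 of 36 had an adjusted p under 0.05, where 0.0% of the 15774 genes tested passed, and the adjusted p of the 36 lay between 0.419 and 0.961. Fitted values leaned to ethanol, with 29 of 36 genes above 0, where 52.7% of all genes were above 0, and a median log2 fold change of 0.21, against 0.02 over all genes. Without adjustment, 7 genes had a p under 0.05 and were higher in ethanol, where 5.31% of all genes were, and 0 lower, where 5.34% of all genes were. Single libraries moved this count: it was 3 higher without control 1, 4 without control 3, 11 without ethanol 3, and 13 higher with 2 lower without ethanol 2, while the share of all genes higher ranged from 1.73% without control 3 to 12.7% without ethanol 2. In 10 genes every ethanol library lay above every control library, where 9.35% of all genes did so, and in 0 genes did every ethanol library lie below, where 8.41% of all genes did. Leaving out 1 library moved the log2 fold change by over 1.5 times in 29 of the 36 genes, and in none of the 6 such fits for Clu, Gjb6, Mlc1, Ppp1r3c, Slc1a3, Slc25a18 and Slc4a4. The 36 genes share cells and libraries and are not independent of each other, and they were chosen with earlier results of these data known. These counts therefore describe the set and are no test of it. For 31 of the 36 genes the 95% interval of the log2 fold change lay between -1 and 1, a change of 2-fold either way. The intervals of Slc1a3, Slc39a12 and Gfap passed 1 and those of Fabp7 and Dio2 passed -1. The interval reached from 0.341 to 0.72 to either side of the estimate.

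**Figure D1:**
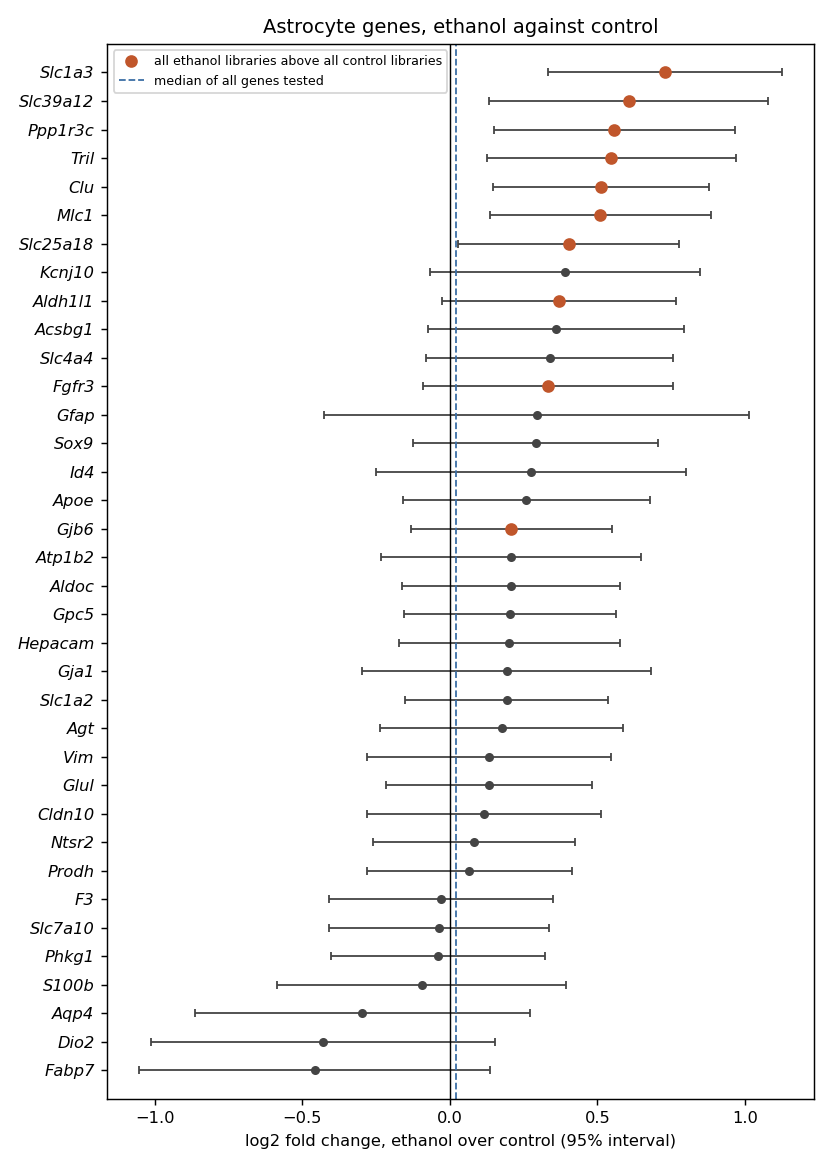
Log2 fold change of each astrocyte gene, ethanol over control, from edgeR with its 95% interval (x axis), genes in order of value (y axis). Orange points are the 10 genes whose 3 ethanol libraries all lay above the 3 control libraries. Slc1a3 stands at the top with 0.73 and Fabp7 at the bottom with -0.46, and 29 of the 36 points lie right of 0.

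Of the 5 glutamate genes, Slc1a3 stood furthest from 0 of the whole set. It had 526, 392 and 531 CPM in ethanol 1, 2 and 3, and 306, 313 and 255 CPM in control 1, 2 and 3. The lowest ethanol library lay above the highest control library, and the log2 fold change was 0.73 (SE 0.18, 95% interval 0.33 to 1.13), with an adjusted p of 0.419 by edgeR. DESeq2 called it (adjusted p = 0.0277), as 1 of the 36 genes, where it called 0.323% of all genes higher and 0.59% lower. Without ethanol 2, edgeR called it too (log2 fold change 0.85, adjusted p = 0.0262), in a fit that called 1.26% of all genes higher and 0.0628% lower. Over the 6 edgeR fits without 1 library each, its log2 fold change lay between 0.64 and 0.85 and its adjusted p between 0.0262 and 0.933. Slc25a18, a mitochondrial glutamate carrier, had 112, 88.6 and 88.9 CPM in ethanol and 71.8, 79.6 and 67.5 CPM in control, again without overlap, and a log2 fold change of 0.40 (SE 0.17).

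Slc1a2, the transporter that carries most glutamate uptake in the adult forebrain, had 1176, 958 and 1222 CPM in ethanol and 1029, 981 and 928 CPM in control. Ethanol 2 lay among the control libraries, and the log2 fold change was 0.19 (SE 0.15, 95% interval -0.15 to 0.54). Glul had 2039, 1760 and 1511 CPM in ethanol and 1650, 1662 and 1533 CPM in control, with ethanol 3 the lowest of the 6 libraries. Slc7a10, a carrier of glycine and D-serine, averaged 73.5 ± 9.94 CPM in ethanol and 75.5 ± 5.32 CPM in control (SD, n = 3 each). Of these 5 genes, Slc1a3 and Slc25a18 were thus the 2 without overlap, with ethanol above control, where 9.35% of all genes were. Whether the 5 differ from each other in their response was not tested.

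The upstream sequence of Slc1a3 is shown with that of the other genes of smallest unadjusted p for which RefSeq promoter windows were matched. These are 4 of the 10 genes whose groups did not overlap. Windows were matched for 32 of the 36 genes, and Clu, Atp1b2, Sox9 and Aqp4 were not matched. The 4 sequences are the 250 bases before the annotated start in build GRCm38.p6, all on the minus strand and written 5′ to 3′, and each window ended at the start of the transcript that held most of the gene's reads. Slc1a3 lies at chr15:8710808-8711057, Ppp1r3c at chr19:36736605-36736854, Mlc1 at chr15:88978554-88978803 and Tril at chr6:53820826-53821075. Capitals mark matches of 3 motifs, each searched on both strands. The CCAAT box was searched as its name spells it. The TATA box was searched as TATAAA. The STAT motif was searched as TTCNNNGAA.
Slc1a3: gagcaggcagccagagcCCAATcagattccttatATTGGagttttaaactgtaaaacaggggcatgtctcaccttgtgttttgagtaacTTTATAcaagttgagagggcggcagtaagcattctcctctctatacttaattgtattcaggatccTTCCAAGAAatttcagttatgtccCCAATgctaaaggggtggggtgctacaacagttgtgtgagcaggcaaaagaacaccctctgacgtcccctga
Ppp1r3c: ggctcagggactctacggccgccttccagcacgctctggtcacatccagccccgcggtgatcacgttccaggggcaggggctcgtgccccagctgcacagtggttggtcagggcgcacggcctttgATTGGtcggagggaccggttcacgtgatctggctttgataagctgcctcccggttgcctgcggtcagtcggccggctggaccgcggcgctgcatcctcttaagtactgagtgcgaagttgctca
Mlc1: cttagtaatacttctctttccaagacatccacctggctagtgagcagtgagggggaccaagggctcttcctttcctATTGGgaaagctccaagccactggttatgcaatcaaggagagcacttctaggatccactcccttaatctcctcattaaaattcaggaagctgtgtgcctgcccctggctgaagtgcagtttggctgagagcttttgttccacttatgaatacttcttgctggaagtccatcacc
Tril: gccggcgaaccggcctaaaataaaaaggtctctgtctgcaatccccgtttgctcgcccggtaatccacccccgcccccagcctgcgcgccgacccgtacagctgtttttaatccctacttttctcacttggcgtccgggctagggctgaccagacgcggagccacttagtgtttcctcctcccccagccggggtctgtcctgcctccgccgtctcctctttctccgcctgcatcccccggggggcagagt

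The Slc1a3 window held matches of all 3 motifs, with a STAT match from -96 to -88 and CCAAT matches from -233 to -229, from -216 to -212 and from -72 to -68, counted back from the base before the start. Its TATAAA match, from -161 to -156, lies on the opposite strand. The Ppp1r3c and Mlc1 windows each held 1 CCAAT match and the Tril window none of the 3 motifs. Among the 32 genes, 6 had a STAT match, against 7.02% of all 32851 windows of this length, 8 had a TATAAA match, against 12.4%, and 15 had a CCAAT match, against 33.8%. Some genes have several windows, so a gene has more chances of a match than a window. A match describes letters and was not tested as a binding site.

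Of the 7 genes of ion, water and membrane transport, 1 was without overlap, with ethanol above control, where 9.35% of all genes were. Mlc1, a membrane protein of astrocyte endfeet whose loss causes a human leukodystrophy, had 388, 359 and 279 CPM in ethanol and 234, 244 and 242 CPM in control. The control libraries lay close together, and the log2 fold change was 0.51 (SE 0.17). Its partner Hepacam, the adhesion protein GlialCAM, had 203, 181 and 150 CPM in ethanol and 143, 165 and 158 CPM in control, and its groups overlapped at a log2 fold change of 0.20 (SE 0.17). Kcnj10, the inward rectifier potassium channel of astrocytes, had 454, 261 and 360 CPM in ethanol and 269, 273 and 279 CPM in control. Ethanol 2 was the lowest of the 6 libraries for Kcnj10 and ethanol 1 the highest.

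Aqp4, the water channel of astrocyte endfeet, leaned the other way, with 92.0, 57.1 and 101 CPM in ethanol and 87.4, 133 and 87.1 CPM in control. The groups overlapped, with ethanol 2 lowest and control 2 highest. The log2 fold change was -0.30 (SE 0.25), which was -0.06 without control 2 and -0.45 without ethanol 3. Atp1b2, a sodium pump subunit, had 898, 541 and 679 CPM in ethanol and 573, 660 and 603 CPM in control. Slc4a4, the sodium bicarbonate cotransporter, averaged 190 ± 31.9 CPM in ethanol and 150 ± 22.6 CPM in control, and Cldn10, a claudin, 52.7 ± 9.99 CPM in ethanol and 48.7 ± 2.20 CPM in control (SD, n = 3 each).

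Both gap junction genes had fitted values near 0.2. Gja1, connexin 43, had 201, 129 and 188 CPM in ethanol and 134, 189 and 132 CPM in control. Ethanol 2 and control 2 crossed over, each standing with the other group. Gjb6, connexin 30, had 60.8, 56.5 and 60.3 CPM in ethanol and 47.8, 55.9 and 50.1 CPM in control. Its groups did not overlap, though ethanol 2 and control 2 were nearly level, and the log2 fold change was 0.21 (SE 0.15).

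Gfap, the filament gene that marks reactive astrocytes, varied more between control libraries than between groups. It had 266, 188 and 171 CPM in ethanol and 117, 269 and 125 CPM in control, so that control 2 was the highest of all 6. The log2 fold change was 0.29 (SE 0.32, 95% interval -0.43 to 1.01). Without control 2 it was 0.79, with an adjusted p of 0.58 by edgeR, and without control 1 or without ethanol 1 it was 0.08. Control 2 was also highest for Aqp4 and, after ethanol 1, the highest for Gja1, and had the fewest genes with reads.

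Vim, the other intermediate filament gene, averaged 36.6 ± 7.17 CPM in ethanol and 33.4 ± 2.91 CPM in control (SD, n = 3 each). It was lowest in ethanol 1, where Gfap was high. S100b, a calcium-binding protein, had 329, 467 and 263 CPM in ethanol and 328, 404 and 400 CPM in control, so that its highest and its lowest library were both ethanol. Of these 3 genes 0 were without overlap, where 9.35% of all genes lay wholly above control and 8.41% wholly below.

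**Figure D2:**
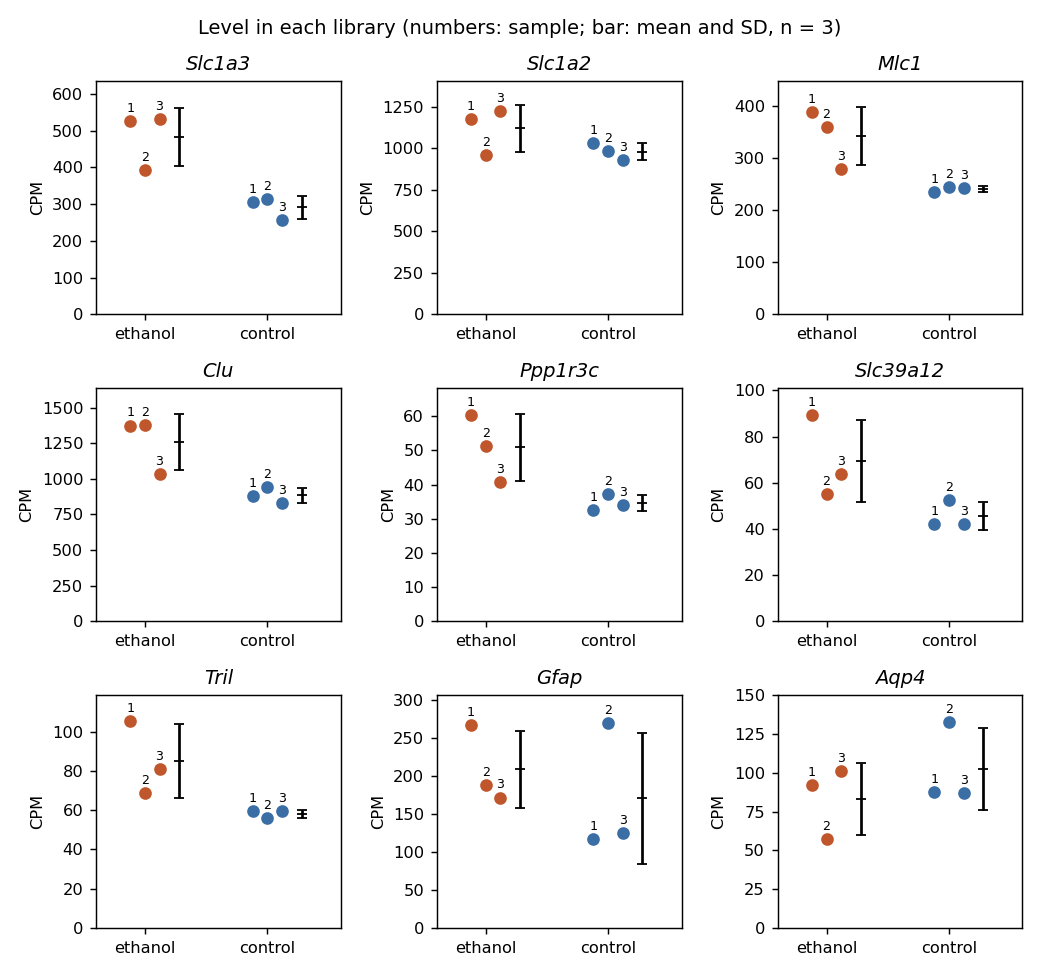
CPM of 9 astrocyte genes in each library (y axis from 0), ethanol left and control right. Points carry the sample number and bars show the mean and SD of 3 samples. The groups separate for Slc1a3, Mlc1, Clu, Ppp1r3c, Slc39a12 and Tril, and overlap for Slc1a2, Gfap and Aqp4, where control 2 is the highest library for Gfap and Aqp4.

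Among the 9 metabolic genes, Ppp1r3c, Slc39a12 and Aldh1l1 were without overlap, with ethanol above control, where 9.35% of all genes were. Ppp1r3c, which targets protein phosphatase to glycogen and promotes its synthesis, had 60.4, 51.4 and 40.9 CPM in ethanol and 32.6, 37.3 and 34.0 CPM in control, a log2 fold change of 0.56 (SE 0.18). Slc39a12, a zinc transporter, had 89.4, 55.1 and 63.7 CPM in ethanol and 42.3, 52.7 and 41.9 CPM in control. Its log2 fold change of 0.61 (SE 0.21) was 0.38 without ethanol 1 and 0.74 without ethanol 2. Aldh1l1 had 144, 114 and 98.2 CPM in ethanol and 91.5, 94.1 and 89.8 CPM in control. Its log2 fold change of 0.37 (SE 0.18) was 0.21 without ethanol 1 and 0.49 without ethanol 3. For Ppp1r3c and Aldh1l1 the ethanol libraries spread widely while the control libraries stood close together.

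Fabp7 and Dio2 had the lowest fitted values of the set. Fabp7, the brain fatty acid-binding protein of glial precursors and astrocytes, had 21.8, 47.2 and 41.5 CPM in ethanol and 44.0, 54.4 and 53.2 CPM in control. The log2 fold change was -0.46 (SE 0.27), which was -0.19 without ethanol 1 and -0.20 with GC and length trends removed. Without ethanol 2 it was -0.69. Dio2 had 11.9, 15.0 and 17.3 CPM in ethanol and 26.5, 13.3 and 19.6 CPM in control. Its log2 fold change of -0.43 (SE 0.26) was -0.16 without control 1 and -0.65 without control 2. Acsbg1, a fatty acyl-CoA synthetase, had 383, 265 and 244 CPM in ethanol and 244, 228 and 223 CPM in control, where ethanol 3 was level with control 1. Aldoc averaged 1627 ± 296 CPM in ethanol and 1410 ± 16.3 CPM in control, Prodh, proline dehydrogenase, 34.6 ± 3.72 CPM in ethanol and 33.1 ± 0.553 CPM in control, and Phkg1, a phosphorylase kinase subunit, 26.0 ± 1.62 CPM in ethanol and 26.7 ± 3.07 CPM in control (SD, n = 3 each).

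The 2 transcription regulators overlapped between groups, where 9.35% of all genes lay wholly above control and 8.41% wholly below. Sox9 averaged 23.8 ± 3.26 CPM in ethanol and 19.5 ± 3.17 CPM in control (SD, n = 3 each). Its log2 fold change was 0.29 (SE 0.19). Id4, an inhibitor of helix-loop-helix factors, had 51.5, 84.8 and 65.4 CPM in ethanol and 42.8, 68.4 and 55.5 CPM in control, a log2 fold change of 0.28 (SE 0.23). Without ethanol 2 it was 0.06 and without control 1 it was 0.12, but without ethanol 1 it was 0.44 and without control 2 0.45.

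Of the 5 receptors and surface proteins, Tril and Fgfr3 were without overlap, with ethanol above control, where 9.35% of all genes were. Tril, an accessory protein of Toll-like receptor signalling in astrocytes, had 106, 68.6 and 81.3 CPM in ethanol and 59.5, 56.0 and 59.4 CPM in control. Its log2 fold change of 0.55 (SE 0.19) was 0.36 without ethanol 1 and 0.67 without ethanol 2. Fgfr3, a fibroblast growth factor receptor, had 217, 146 and 147 CPM in ethanol and 140, 134 and 130 CPM in control. Its log2 fold change of 0.33 (SE 0.19) was 0.12 without ethanol 1 and 0.43 without ethanol 3. Ethanol 1 carried most of the difference in Fgfr3, and the other ethanol libraries stood just above control 1. Gpc5, a glypican, averaged 44.9 ± 2.60 CPM in ethanol and 39.0 ± 4.70 CPM in control, Ntsr2, a neurotensin receptor, 250 ± 27.9 CPM in ethanol and 237 ± 6.50 CPM in control, and F3, tissue factor, 47.8 ± 7.66 CPM in ethanol and 48.8 ± 2.44 CPM in control (SD, n = 3 each).

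Of the 3 secreted proteins, Clu was without overlap, with ethanol above control, where 9.35% of all genes were. Clu had 1375, 1376 and 1031 CPM in ethanol and 878, 940 and 834 CPM in control. Its log2 fold change was 0.51 (SE 0.16, 95% interval 0.15 to 0.88), with an adjusted p of 0.43 by edgeR. Apoe had 3571, 4784 and 2933 CPM in ethanol and 2960, 3121 and 3357 CPM in control, so that ethanol held both the highest and the lowest library. Its log2 fold change of 0.26 (SE 0.19) was 0.04 without ethanol 2 and 0.41 without ethanol 3. Agt, angiotensinogen, which astrocytes make in the brain, had 336, 252 and 247 CPM in ethanol and 211, 277 and 251 CPM in control, a log2 fold change of 0.18 (SE 0.18). Without ethanol 1 it was 0.02 and without control 1 it was 0.08, but without ethanol 3 it was 0.26 and without control 2 0.27.

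**Figure D3:**
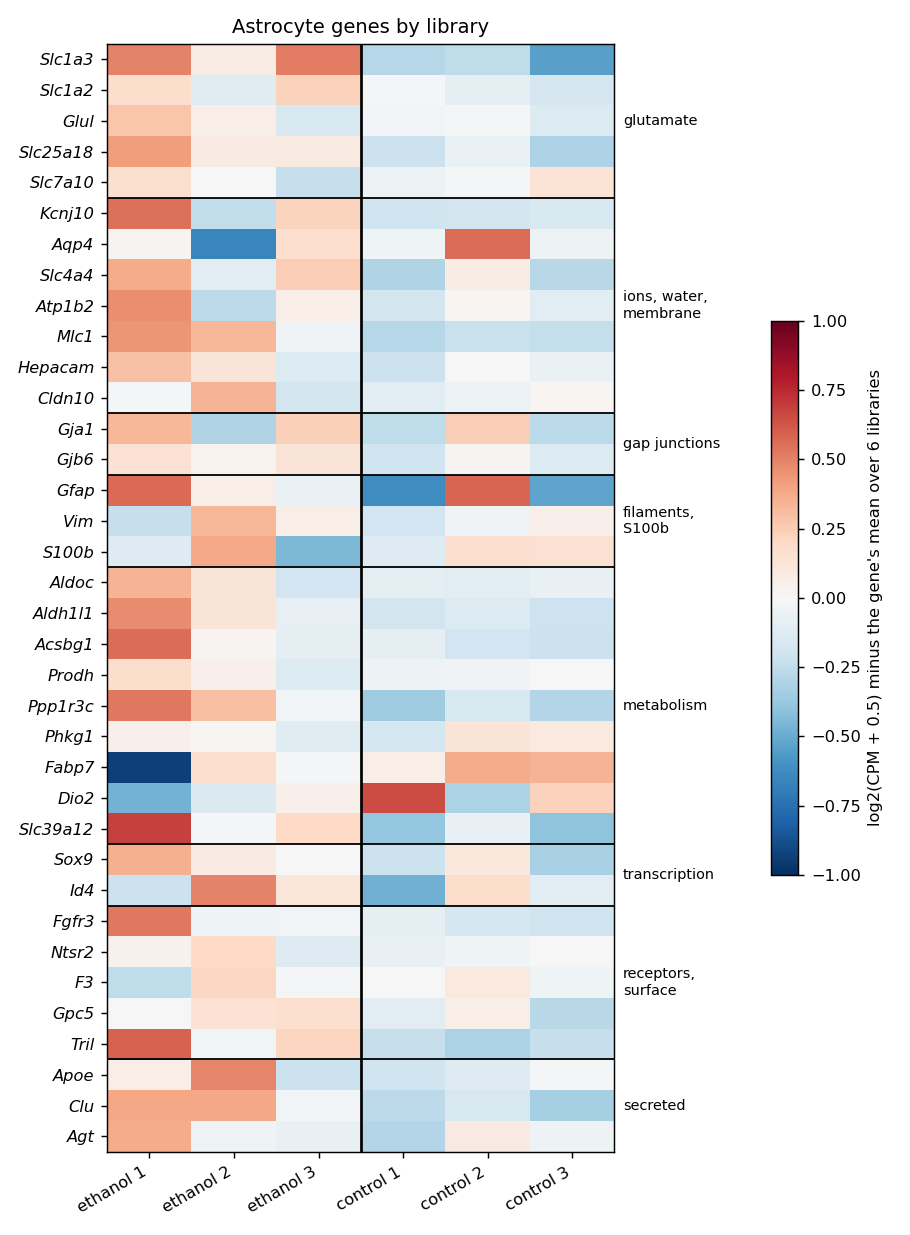
Each row is an astrocyte gene, grouped by role, and each column a library, ethanol left of the line and control right. Colour gives log2(CPM + 0.5) minus the gene's mean over the 6 libraries, red above and blue below. Ethanol 1 is red in most rows and control 1 and control 3 mostly blue, while ethanol 3 and control 2 are mixed.

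The libraries did not take part equally. Ethanol 1, the deepest library, was the highest of the 6 for 20 of the 36 genes, where it was the highest for 26.1% of all genes tested. Ethanol 2 was the highest for 8 genes and ethanol 3 for 3, where they were the highest for 24.1% and 12.7% of all genes. Control 1, control 2 and control 3 were the highest for 1, 4 and 0 genes, against 10.3%, 13.3% and 13.4% of all genes. Expressed as the median deviation of the 36 genes from their mean over the libraries, on the log2(CPM + 0.5) scale, ethanol 1, 2 and 3 stood at 0.31, 0.07 and -0.02, and control 1, 2 and 3 at -0.19, -0.04 and -0.14. Over all genes tested the same medians lay between -0.02 and 0.01. Without ethanol 1 the median log2 fold change of the 36 genes was 0.14 and 28 of 36 were above 0, and without ethanol 3 they were 0.28 and 32 of 36.

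Ratios between astrocyte genes within a library do not depend on how the library was scaled. They were chosen with the results above known and are given as descriptions. Of 10 ratios computed, 5 separated the groups and 5 overlapped. The separating ones were Slc1a3 to Slc1a2, to Glul, to Gja1 and to Aldh1l1, and Kcnj10 to Aqp4. All of them but the last have Slc1a3 as numerator. The groups did not overlap for Slc1a3 itself, so those ratios share its separation and are not independent results. The overlapping ones were Gfap to Aldh1l1, Gja1 to Gjb6, Apoe to Clu, S100b to Aldh1l1 and Vim to Gfap. The ratio of Slc1a3 to Slc1a2 in FPKM was 1.23, 1.12 and 1.19 in ethanol 1, 2 and 3, and 0.815, 0.875 and 0.753 in control 1, 2 and 3. Slc1a3 thus exceeded Slc1a2 per length in each ethanol library and was below it in each control library. The listed Slc1a2 transcript is 11571 bases long and that of Slc1a3 4206 bases, and with GC and length trends removed the log2 fold changes were 0.39 for Slc1a2 and 0.72 for Slc1a3. The ratio of Slc1a3 to Aldh1l1 was 2.68, 2.53 and 3.97 in ethanol and 2.45, 2.44 and 2.09 in control. The ratio of Kcnj10 to Aqp4 was 4.72, 4.42 and 3.41 in ethanol and 2.95, 1.96 and 3.06 in control. The ratio of Gfap to Aldh1l1 overlapped, with 2.10, 1.88 and 1.99 in ethanol and 1.45, 3.26 and 1.58 in control, where control 2 stood apart.

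**Figure D4:**
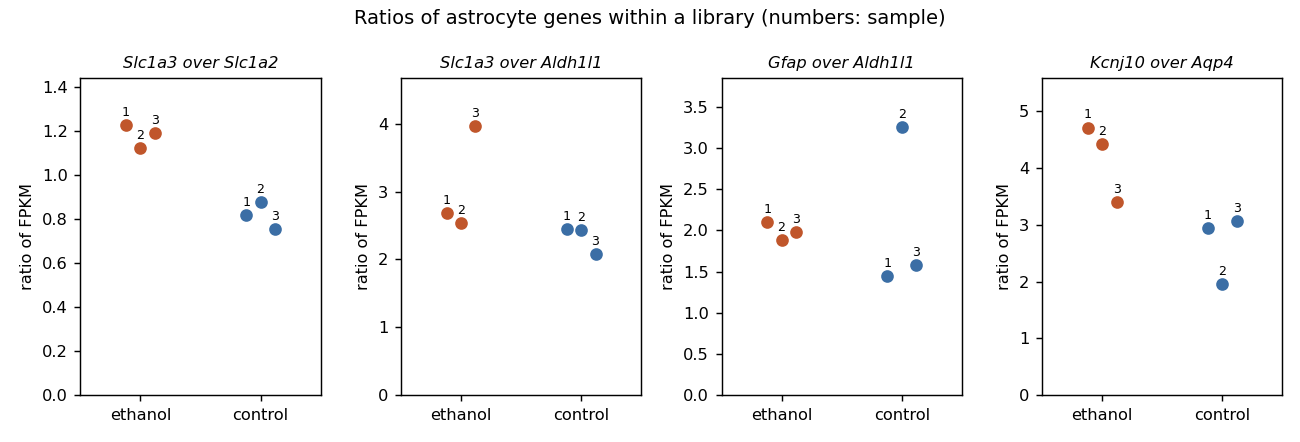
Ratio of the FPKM of 2 astrocyte genes within each library (y axis from 0), ethanol left and control right, with the sample number at each point. The ratio of Slc1a3 to Slc1a2 is above 1 in the 3 ethanol libraries and below 1 in the 3 control libraries, and the ratio of Gfap to Aldh1l1 is highest in control 2.

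The table lists 65 RefSeq transcripts for the 36 genes, with 26 genes listed by 1 transcript and 10 by several. How reads were divided among transcripts of a gene is an estimate. Of the 53 transcripts that passed the low-count filter, 0 had an adjusted p under 0.05 by edgeR over all 22527 transcripts tested, of which 0.0% passed. The same test found almost none of the changed transcripts in simulated data, so its 0 calls do not show that these transcripts were unchanged. At an unadjusted p under 0.05 there were 7, where 6.55% of all transcripts were. Each of these 7 is the only listed transcript of its gene. They belong to the same 7 genes that had an unadjusted p under 0.05 by edgeR, so they repeat that count.

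Gfap kept a steady split, with transcript variant 1 of the table taking 4.89%, 4.03% and 4.98% of its reads in ethanol and 4.75%, 4.04% and 4.52% in control. Slc1a2 was carried almost wholly by its variant 1, with 99.2% of reads in ethanol 1 and a larger share in the other 5 libraries. Claudin 10 was read as its variant b, with at least 99.9% of reads in each library. Slc4a4 did not keep a steady split: its variant 2 took 73.6%, 46.4% and 77.6% of reads in ethanol and 81.8%, 0% and 88.4% in control, and in control 2 all 6779 reads were given to variant 1. The summed Slc4a4 level of control 2, 176 CPM, lay between those of the ethanol libraries, 154 to 216 CPM.

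For Aqp4, 6 of the 9 listed transcripts had 0 reads in all libraries. Its variant 2 took 5.40%, 37.8% and 13.1% of reads in ethanol and 19.4%, 8.50% and 4.81% in control, highest in ethanol 2, where the gene was lowest. For Fgfr3, variant 2 took 32.1%, 11.3% and 25.3% in ethanol and 17.7%, 14.0% and 7.99% in control, so that ethanol 1 and ethanol 3 lay above all control libraries and ethanol 2 did not. For Aldoc, variant 1 took 3.22%, 6.06% and 7.44% in ethanol and 8.78%, 1.05% and 1.18% in control, with control 1 highest of all.

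**Figure D5:**
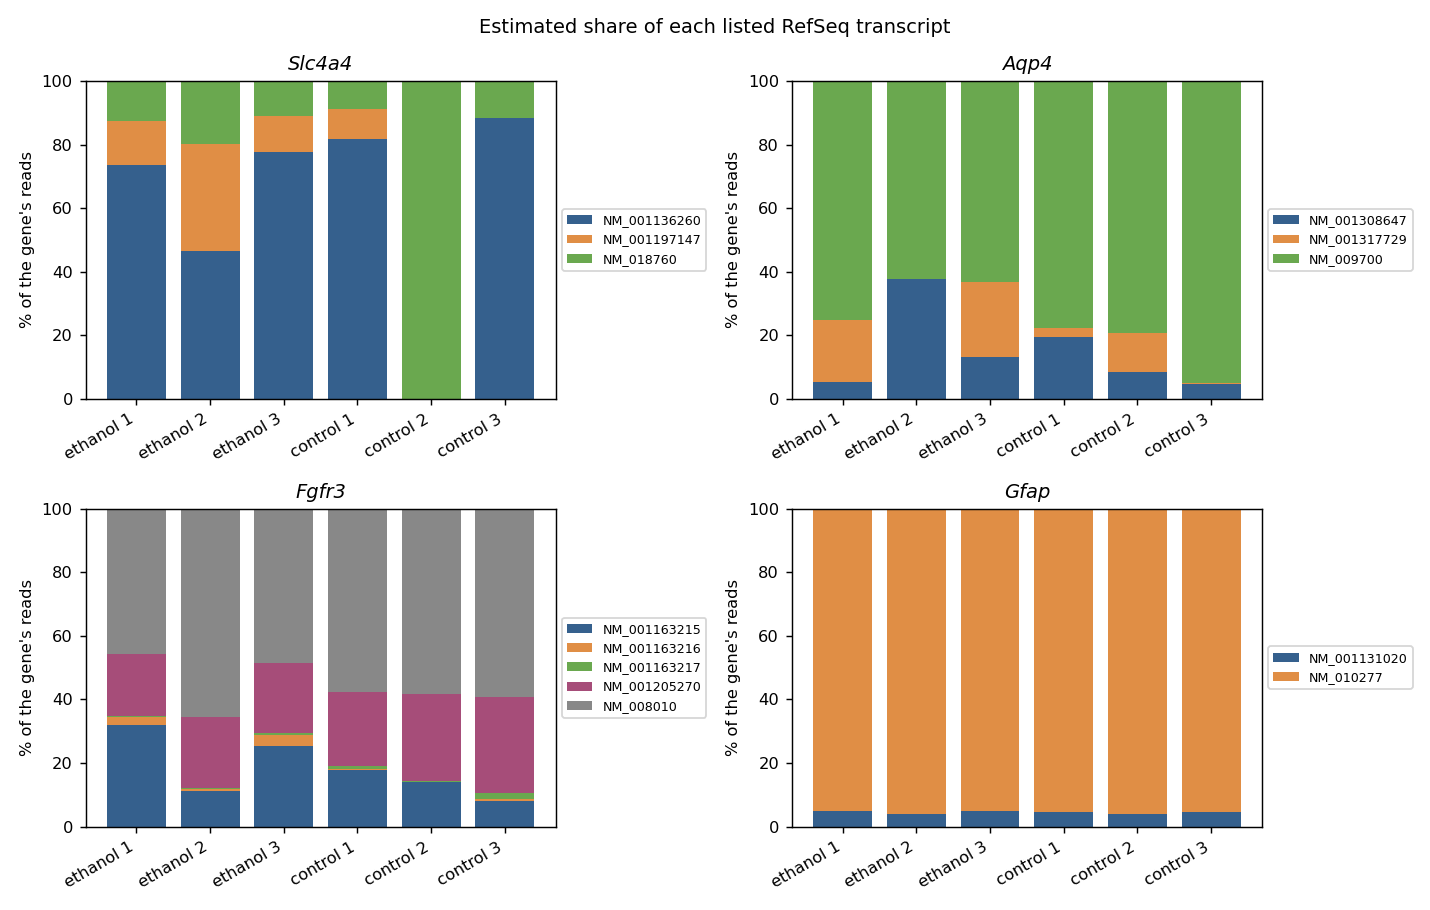
Estimated share of each listed RefSeq transcript in the reads of Slc4a4, Aqp4, Fgfr3 and Gfap (y axis, per cent), ethanol libraries left and control libraries right. Blue is variant 2 in Slc4a4, Aqp4 and Fgfr3 and variant 1 in Gfap, and green is variant 1 in Slc4a4. Gfap keeps the same split in all 6 libraries, and control 2 differs from the other 5 in Slc4a4, where 100% of the reads stand in 1 transcript.

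Other genes of astrocyte pathways were counted in 10 lists of 131 genes, of which 125 were tested and 0 passed over all genes. Of the 125, 81 had a log2 fold change above 0, with a median of 0.14, where 52.7% of all genes were above 0. At an unadjusted p under 0.05, 12 were higher and 4 lower, where 5.31% and 5.34% of all genes were higher and lower. In glutamate and GABA handling, 8 of 10 were above 0 with a median of 0.28. Slc6a11, the astrocytic GABA transporter GAT-3, had 1053, 456 and 618 CPM in ethanol and 468, 523 and 455 CPM in control, where ethanol 1 stood far above the rest.

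In glycogen and lactate metabolism, 11 of 16 were above 0 with a median of 0.16 3 were without overlap above control, where 9.35% of all genes were, and 1 below, Phka1, where 8.41% were. Pygb, the brain glycogen phosphorylase, had 443, 291 and 293 CPM in ethanol and 211, 234 and 193 CPM in control, a log2 fold change of 0.69 (SE 0.20). Pgm2, a phosphoglucomutase, and Ldha, a lactate dehydrogenase subunit, had log2 fold changes of 0.48 and 0.46. In lipid transport and fatty acids, 11 of 13 were above 0 with a median of 0.25, led by Fads2, a fatty acid desaturase, with 0.92 (SE 0.33), which was 197, 68.3 and 123 CPM in ethanol and 72.7, 75.4 and 56.8 CPM in control.

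Potassium, water and dystrophin complex genes had 5 of 13 above 0 and a median of -0.02. Dag1, dystroglycan, which anchors endfoot channels, had 143, 84.7 and 104 CPM in ethanol and 71.5, 78.6 and 69.5 CPM in control, whereas Clcn2, a chloride channel, had 49.7, 45.6 and 52.4 CPM in ethanol and 79.9, 58.3 and 74.3 CPM in control. Among astrocyte-secreted synapse and matrix proteins, 8 of 13 were above 0 with a median of 0.12. Sparcl1, hevin, a synapse-promoting protein, had 2961, 2493 and 2406 CPM in ethanol and 1798, 1970 and 1703 CPM in control, without overlap and with a log2 fold change of 0.52 (SE 0.15). G protein-coupled receptors and calcium genes had 12 of 14 above 0 and a median of 0.27, and glial transcription factors 9 of 18 and -0.03.

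Genes described as induced in reactive astrocytes of mice were counted in 3 lists of 34, of which 28 were tested. Of these, 17 were above 0, where 52.7% of all genes were, and the median was 0.08. In 3 every ethanol library lay above control and in 3 below, where 9.35% and 8.41% of all genes did. Lcn2, Steap4, Timp1 and Cxcl10, of the pan-reactive list, and Tgm1 and Slc10a6, of the ischaemia list, were below the low-count filter, and Tgm1 and Slc10a6 had 0 reads in all 6 libraries. Serpina3n, a protease inhibitor of reactive astrocytes, had 42.5, 24.9 and 27.7 CPM in ethanol and 21.6, 24.1 and 17.3 CPM in control. Aspg, an asparaginase of the same list, had 2.76, 2.75 and 2.28 CPM in ethanol and 3.63, 4.65 and 4.24 CPM in control, so the 2 genes of smallest unadjusted p in that list pointed in opposite directions.

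Marker lists of other cells were summed in CPM to show what else moved between the libraries. The 10 medium spiny neuron genes summed to 2363, 3838 and 1934 CPM in ethanol and 1981, 2195 and 1830 CPM in control, highest in ethanol 2. Of these 10, 9 were above 0 with a median log2 fold change of 0.45, further from 0 than the median of the astrocyte genes, and 3 were without overlap above control, where 9.35% of all genes were. The 4 genes of cortical glutamatergic neurons summed to 32.6, 17.4 and 68.8 CPM in ethanol and 315, 69.5 and 109 CPM in control, with Slc17a7 their most abundant gene. The 8 oligodendrocyte genes summed to 16620 to 21678 CPM in ethanol and 19955 to 23559 CPM in control, and were lowest in ethanol 3. The 6 general neuron genes summed to 3314 to 4060 CPM in ethanol and 3933 to 4097 CPM in control.

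Microglial genes summed to 385 to 597 CPM in ethanol and 366 to 471 CPM in control, oligodendrocyte precursor genes to 560 to 748 CPM in ethanol and 559 to 580 CPM in control, and endothelial genes to 152 to 168 CPM in ethanol and 159 to 196 CPM in control. Ependymal genes, of cells that line the ventricle and share some genes with astrocytes, summed to 36.3, 71.5 and 51.5 CPM in ethanol and 34.7, 39.6 and 54.1 CPM in control. Choroid plexus genes summed to 0.96 to 2.68 CPM in ethanol and 2.65 to 397 CPM in control, the last in control 3, where Ttr alone had 394 CPM. Of this list, Kcnj13 or Folr1 had 0 reads in some libraries. Meningeal fibroblast genes summed to 12.3 to 13.7 CPM in ethanol and 15.4 to 25.8 CPM in control, highest in control 2. Mural cell genes summed to 76.5 to 99.7 CPM in ethanol and 109 to 133 CPM in control. In the sums of both of these lists ethanol lay below control without overlap. Of the 4 genes in each list, 1 lay wholly below control, where 8.41% of all genes did. Fitted values were below 0 for 3 mural and 4 meningeal genes. Genes of dividing cells and neuroblasts overlapped, at 29.6 to 38.7 CPM in ethanol and 35.3 to 36.8 CPM in control. Blood cell genes summed to 215, 427 and 105 CPM in ethanol and 165, 117 and 220 CPM in control. The part of these lists, and of the depth of ethanol 1, in the astrocyte values was not tested.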

How the data were processed

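RNA of 6 samples of mouse nucleus accumbens core was sequenced after mRNA isolation, per the labels' protocols. The authors deposited 1 table with a row per RefSeq transcript, giving an estimated read count and an FPKM value for each sample, per the file headers. Build mm10 and the tool bcl2fastq come from the submitters' processing notes. The aligner and the counting tool were not given in the sources used here. Each deposited count is an estimated count. Values equal FPKM times length times a library size, rounded up (within 0.05 reads, for 100% of transcripts checked in each library). That library size was itself fitted from these values with rounding up assumed, and it exceeded the listed reads in each library. Transcripts with the highest counts were left out of the check. Whether strand was used was not stated. Isoforms, paralogs and overlapping genes may therefore share reads wrongly. The deposited FPKM were used to compare levels between genes and for ratios.

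The 36780 transcripts were summed to 24532 genes by gene identifier, and filterByExpr (minimum count 10) left 15774. The astrocyte genes and all lists were chosen with earlier results of these data known. Groups were compared with TMM scaling and edgeR's quasi-likelihood test (version 4.0.16, R 4.3.3), two-sided and with no covariate beside group, and adjusted p-values are Benjamini-Hochberg over all genes tested, called under 0.05. Standard errors (SE) were taken as the log2 fold change over the square root of F, and the interval is 95%. The common biological coefficient of variation was 0.252. At these depths 3 reads are 0.045 to 0.084 CPM, which covers counting error only. Transcripts were tested in the same way without summing (22527 tested). Full values were given for the genes with the smallest unadjusted p in each role and for Gfap, Aqp4, Aldh1l1, Slc1a2, Slc1a3, Gja1 and Apoe, and for at most 3 genes of smallest p in each pathway list. Other astrocyte genes given by library were chosen after their values were seen, and 1 gene of a pathway list is not reported here by name. Alternatives were DESeq2 1.42.0, limma-voom (3.58.1) plain and with weights per sample, RLE factors, total counts only, no low-count filter, a replicate block and leaving out each sample. Removing a loess trend over GC content and length (97% of genes matched to GENCODE M21) was chosen after seeing the data. Simulated data held changes planted in genes or transcripts drawn at random, with no shift shared by the genes of a library. On them edgeR found most large gene changes and missed most of the smallest, which exceeded most changes fitted for the astrocyte genes. DESeq2 found more but made more false calls, and the transcript test found almost none. Rates for the astrocyte genes themselves were not simulated. Upstream sequences are from RefSeq, build GRCm38.p6. Figures used matplotlib 3.10.9.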

Additional observations from a re-analysis of the deposited data

How the results depend on the processing

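The 0 genes called by edgeR, with 1681 at an unadjusted p under 0.05, stayed at 0 with limma-voom (1751 at an unadjusted p under 0.05), sample weights, RLE factors, total counts only, no low-count filter and GC and length trends removed. DESeq2 called 144 genes, 51 higher and 93 lower in ethanol, with Slc1a3 as the 1 astrocyte gene among them. Over the fits without 1 library the count of genes ranged from 0 to 211 (211 without ethanol 2, 1 without control 1), and the count of transcripts was 0 in each, by a test that found almost none in simulated data. The median log2 fold change of the 36 genes ranged from 0.14 to 0.28 over these fits and stayed above 0 in all 14 alternatives. With total counts only it was 0.12, where the median of all genes was -0.06, against 0.21 and 0.02 with TMM. Of the 36 genes, 27 kept the sign of their log2 fold change in all 14 alternatives, 24 of them above 0. Aqp4, Dio2 and Fabp7 were the ones below 0. The sign changed in 9, among them S100b, which was 0.08 without ethanol 3, and Atp1b2, which was -0.0028 without ethanol 1. The alternatives refit the same libraries, and the same count was not made over all genes. With equal replicate numbers as a block, 0 genes and 0 transcripts were called and the median was 0.20. The numbers share no stated origin, and the deviations of same-numbered samples correlated at 0.22, -0.05 and -0.11, so they were not treated as pairs. Each of the 36 genes had at least 511 reads in every library. How far counting error and the spread between samples each set the intervals was not tested.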
